A study of Mus musculus with 4 samples.

Results

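The Rab GTPase family was taken as every probe set whose platform gene symbol is Rab followed by a number and at most 1 letter. Among the 22626 non-control probe sets found on both array types of the study, the rule chose 95 probe sets of 50 genes. A further 37 probe sets, of 22411, were on the larger array type only and added 9 genes, so the family here has 59 genes. The genes were grouped by the transport step at which each Rab is best known to act.

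The cells were GMP, granulocyte and monocyte progenitors sorted from the bone marrow of mice aged 10 to 16 weeks. RNA of wild type and of Icsbp-deficient GMP was each put on 1 Affymetrix array of the type called 430A and 1 of the type called MOE430_2, 4 arrays in all. Icsbp, also named Irf8, is a transcription factor that favours monocytic over granulocytic fate. Every array had its own preparation from pooled animals, at least 10 for wild type and at least 8 for Icsbp-deficient GMP, so the spread between single animals is not measured. For the wild type 430A array the label gives a mixed C57/Bl6 - S129Ola background but no genotype, which was taken from the series' design text. The strain behind the other 3 arrays, the Icsbp allele and the sorting gates are not given in the labels, and a further Icsbp-deficient preparation was not analysed here. An ENZO kit and 5 µg of RNA were used for the Icsbp-deficient 430A sample, and a one-cycle kit and 1 to 2 µg for both samples of the MOE430_2 type. For the wild type 430A sample no kit is named in the labels, so whether the kit differed between the genotypes on that type is not known.

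Rab proteins are small GTPases that mark the membranes of the secretory and endocytic routes. In the GTP-bound form, set by exchange factors, a Rab recruits effectors such as tethers and motor adaptors. GTPase-activating proteins return it to the GDP-bound form, which GDP dissociation inhibitors extract from the membrane. In myeloid cells Rabs are known for phagosome maturation and for the traffic and release of granules, which are lysosome-related or secretory organelles.

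Signals are given after scaling each array to a trimmed mean of 500 and quantile normalization within each array type. Log2 ratios compare deficient with wild type GMP as log2(signal + 50), a scale on which changes at low signal are understated. The value after ± is limma's moderated standard error of the mean of n = 2 ratios, 1 per array type. "Called" means a limma adjusted p under 0.05 over the 13576 probe sets tested. With 1 preparation per genotype and array type, p-values rest only on how far ratios differ between the array types in these samples. For each probe set that error is mostly borrowed from other probe sets. In a bulk sample fewer cells of a type and less RNA per cell cannot be told apart. Log2 signals correlated at 0.9798 between the genotypes on the 430A type and at 0.9793 on the MOE430_2 type.

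The sorted population carried GMP transcripts in both genotypes. The 10 GMP and primary granule markers listed were all above the signal filter. Their summed signal was 83650 in wild type and 85408 in deficient GMP on the 430A arrays, and 126251 and 135300 on the MOE430_2 arrays. Most of each sum came from Mpo, Ctsg, Elane and Prtn3. Quantile normalization gives the arrays of 1 type the same distribution of signals, so near-equal sums of such bright genes are partly built in. Of the 10 markers, 2 were called higher and 1 lower, against 3.26% and 2.34% of all 7820 genes tested by their brightest probe set. The 1 lower was Cd34, a surface antigen used to define GMP, at -1.73. The 2 higher were Fcgr3 at 1.00 (limma adjusted p = 0.000776) and Cebpa at 0.69 (limma adjusted p = 0.0117). Probe sets of the targeted gene Irf8 still gave signal in the deficient GMP, with mean log2 ratios of -0.48 ± 0.16 (limma adjusted p = 0.124) and 0.06 ± 0.12 (limma adjusted p = 0.832). Which part of the gene is deleted is not given, so neither probe set checks the labels.

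Most Rab transcripts differed little between the genotypes, and 1 member, Rab38, was far lower in Icsbp-deficient GMP. Of the 95 shared Rab probe sets, 69 of 40 genes were above the signal filter and tested. Rab38 was the 1 probe set called lower, 1.45% of the 69, beside 2.14% of all tested probe sets. Rab7b and Rab3d each had 1 probe set called higher, together 2.90% of the 69 beside 2.99% of all. In either direction 4.35% of the tested Rab probe sets were called, against 5.13% of all, so the share of called members was near the background. The count of 2 higher became 0 when the offset was lowered to 16 and in several of the other alternatives, while the call of Rab38 was lost in 1, the model without the array type block.

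Among the 69 tested Rab probe sets, 63 had an absolute mean log2 ratio under 0.5, a share of 91.3% beside 90.2% of all tested probe sets. The median was 0.11 over the Rab probe sets and -0.01 over all, and 46 of the 69 means, 66.7%, were above 0 beside 48.6% of all. The direction was the same on both array types for 41 of the 69, 59.4% beside 62.8% of all. An unadjusted p under 0.05 was found for 10 of the 69, 14.5%, beside 18.6% of all tested probe sets. Probe sets of 1 gene are counted separately here, and 20 genes had more than 1 tested probe set. The remaining 26 shared probe sets were below the filter, and 10 genes had none above it: Rab3a, Rab3b, Rab3c, Rab6b, Rab20, Rab25, Rab27b, Rab30, Rab33a and Rab40b. On the shared probe sets the highest signal of these 10 genes was 90.5, for Rab20, and they are reported as not tested and not as absent. On the MOE430_2 type alone, other probe sets read up to 383 for Rab3a and 123 for Rab6b.

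**Figure D1:**
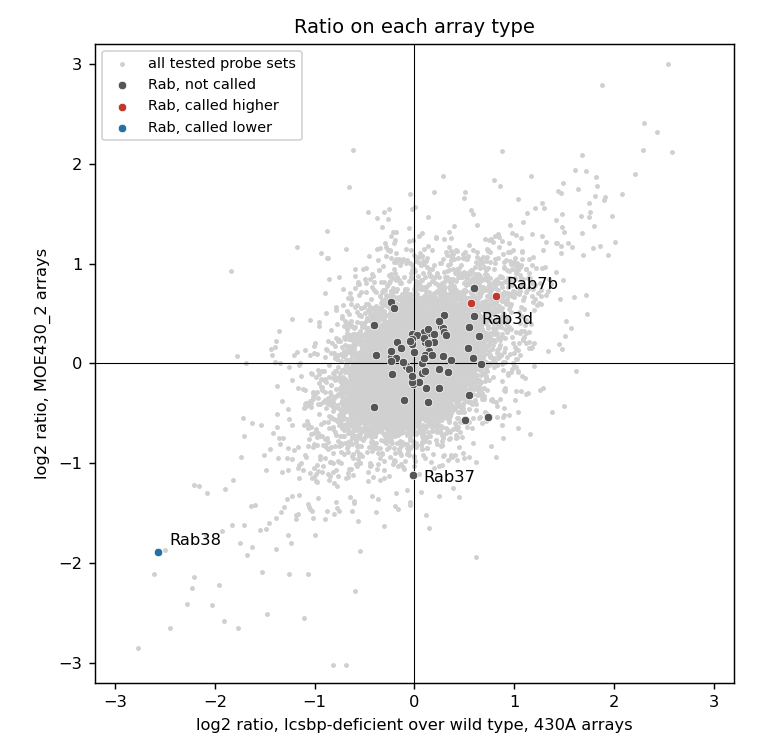
Log2 ratio of Icsbp-deficient over wild type GMP on the 430A arrays (x axis) against the MOE430_2 arrays (y axis), with 1 point per tested probe set. The 69 Rab probe sets are dark or coloured points over those of all 13576 in light grey. The axes end at an absolute log2 ratio of 3.2, and 11 of the 13576 lie beyond them and are not shown. Rab38 lies at -2.56 and -1.89, away from the other members, and Rab37 is at -0.02 on 1 type and -1.12 on the other.

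The Rabs of lysosome-related organelles and secretory granules held the member with the largest change. Of their 10 tested probe sets of 5 genes, 1 was called higher and 1 lower, beside 2.99% and 2.14% of all tested probe sets. An unadjusted limma p under 0.05 was found for 4 of the 10, 40%, all of Rab38 or Rab3d, beside 18.6% of all. Rab38, known for the delivery of enzymes to melanosomes and related organelles, was 4.68-fold lower in Icsbp-deficient GMP. Its shared probe set, 1417700_at, read 1576 in wild type and 225 in deficient GMP on the 430A arrays, and 1104 and 261 on the MOE430_2 arrays. Both deficient arrays were thus well below both wild type arrays, and all 4 readings were above the filter, which lay at a signal of 76.8. The log2 ratios were -2.56 and -1.89, with a mean of -2.23 ± 0.18, a 95% interval from -2.63 to -1.82 and a limma adjusted p of 0.000222. The fall was the 16th largest of the 13576 tested probe sets, the 4th on the 430A type alone and the 30th on the MOE430_2 type alone. The next largest absolute mean in the family was 0.74.

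A separate Rab38 probe set on the MOE430_2 type only, 1439628_x_at, read 953 in wild type and 315 in deficient GMP. That is a log2 ratio of -1.46, 2.75-fold lower, with no replicate and so no test. It was the 1 probe set past 2-fold among the 15 Rab probe sets of that type alone above a filter of their own, beside 1.97% of the 6598 such probe sets of all genes. That filter was the 40th percentile of the shared probe sets on the MOE430_2 arrays, a signal of 57.9 after the normalization used for this type. Without any 1 of the 4 arrays, in a model with no array type block, the ratio of 1417700_at was between -2.47 and -1.98 and its limma adjusted p under 0.05. In those fits 1 genotype has a single array, assumed to vary like the other genotype, whose spread is that between its arrays of different types. With all 4 arrays and no block its limma adjusted p was 0.246.

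Markers of other cell types moved with the genotype beside Rab38. The 8 tested markers of eosinophils, basophils and mast cells, of 13 on the shared probe sets, were all called lower. The summed signal of the 13 was 6563 and 9173 in wild type and 2435 and 2386 in deficient GMP. Of the 5 not tested, Prg3 had a log2 ratio of -1.31, and Cma1, Tpsb2, Il5ra and Ccr3 had 0.17, 0.11, 0.07 and 0.04. Of 12 monocyte and dendritic cell markers, 7 were called lower and 2 higher. Their sums were 7915 and 10360 in wild type and 7322 and 9245 in deficient GMP. Csf1r, the brightest of the 12, had a mean of -0.01, while Ly86 fell from 1515 and 1877 to 16.1 and 9.71. Ccr2, of the 2 called higher, rose from 822 and 1277 to 2288 and 3533. Erythroid and megakaryocyte markers had 3 of 8 tested called lower, and their sums were 2436 and 2576 in wild type against 1369 and 517 in deficient GMP. None of the 5 tested lymphoid markers was called by limma, and 3 had an unadjusted p under 0.05. Of all 7820 genes tested by their brightest probe set, 2.34% were called lower, 3.26% higher, and 19.5% had an unadjusted limma p under 0.05. Fcer1a, Ly86, Klf4 and Car1, all called lower, read under the filter signal of 76.8 on both deficient arrays. On the log2 scale the mean of the deficient readings was also under it for Ms4a2, H2-Aa and H2-Eb1. These markers were tested only through their wild type readings, so their calls depend on that selection. No marker of any list was at 0 on any array, and the part of these populations in the Rab38 difference was not tested.

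Rab32, the closest relative of Rab38 and known for the same melanosome pathway, showed no shared direction. Its probe set 1416527_at read 1430 in wild type and 1065 in deficient GMP on the 430A arrays and 1755 and 2310 on the MOE430_2 arrays. The genotypes overlapped, lower in deficient GMP on 1 type and higher on the other, with a mean of -0.01 ± 0.18 and an interval from -0.41 to 0.39 (limma adjusted p = 0.984). A change of Rab32 as large as that of Rab38 lies outside this interval. Hps1 and Hps4, which form the exchange factor for Rab32 and Rab38, had mean log2 ratios of -0.05 (limma adjusted p = 0.904) and 0.14 (limma adjusted p = 0.717).

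Rab3d, a Rab of regulated exocytosis found on secretory granules, was higher in deficient GMP by its called probe set. That probe set, 1418891_a_at, read 707 in wild type and 1071 in deficient GMP on the 430A arrays and 561 and 881 on the MOE430_2 arrays. Both deficient readings were above both wild type readings, at 0.57 and 0.61 on the log2 scale. The mean was 0.59 ± 0.14, or 1.50-fold, with a limma adjusted p of 0.0452. The other 3 tested Rab3d probe sets were higher on both types without being called. Their means were 0.53 ± 0.15 for 1449259_at (limma adjusted p = 0.0774), 0.39 for 1418890_a_at (limma adjusted p = 0.157) and 0.32 for 1449260_at (limma adjusted p = 0.475). The call of 1418891_a_at held in 5 of the 10 alternatives that kept the array type block and could test it, and its limma adjusted p reached 0.112 in the others. Beside 3.26% called higher over all 7820 genes, 11 of 14 neutrophil secondary and tertiary granule markers moved the same way and were called. Their summed signal was 17688 and 28006 in wild type and 44397 and 72402 in deficient GMP, and their part in the Rab3d difference was not tested.

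Rab27a, which acts in granule docking and whose loss is known to impair granule release, gave no call. Its brightest shared probe set, 1425284_a_at, read 366 in wild type and 445 in deficient GMP on the 430A arrays and 233 and 222 on the MOE430_2 arrays, so the types disagreed in direction. The means of its 3 tested probe sets were 0.09 ± 0.17, -0.07 ± 0.18 and 0.25 ± 0.21, with limma adjusted p from 0.603 to 0.867. A Rab27a probe set on the MOE430_2 type only, 1429123_at, read 1793 in wild type and 2534 in deficient GMP, a log2 ratio of 0.49 with no replicate. Of the Rab27 effector Unc13d, which primes granules for fusion, a probe set on the MOE430_2 type only read 253 in wild type and 261 in deficient GMP. Rab44, a large Rab reported in myeloid cells and likewise on that type only, read 1894 and 2014, a log2 ratio of 0.09.

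Rab37, a granule Rab described in mast cells, split by array type. Its probe set 1450167_at read 137 in wild type and 135 in deficient GMP on the 430A arrays but 125 and 30.6 on the MOE430_2 arrays. The Icsbp-deficient MOE430_2 array alone stood apart, and the mean of -0.57 ± 0.28 was not called (limma adjusted p = 0.313). It was also the 1 tested Rab probe set that passed the filter in 1 genotype only. The Rab37 probe set of the MOE430_2 type alone, 1433947_at, lay below the filter of that type and read 99.6 in wild type and 26.8 in deficient GMP.

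**Figure D2:**
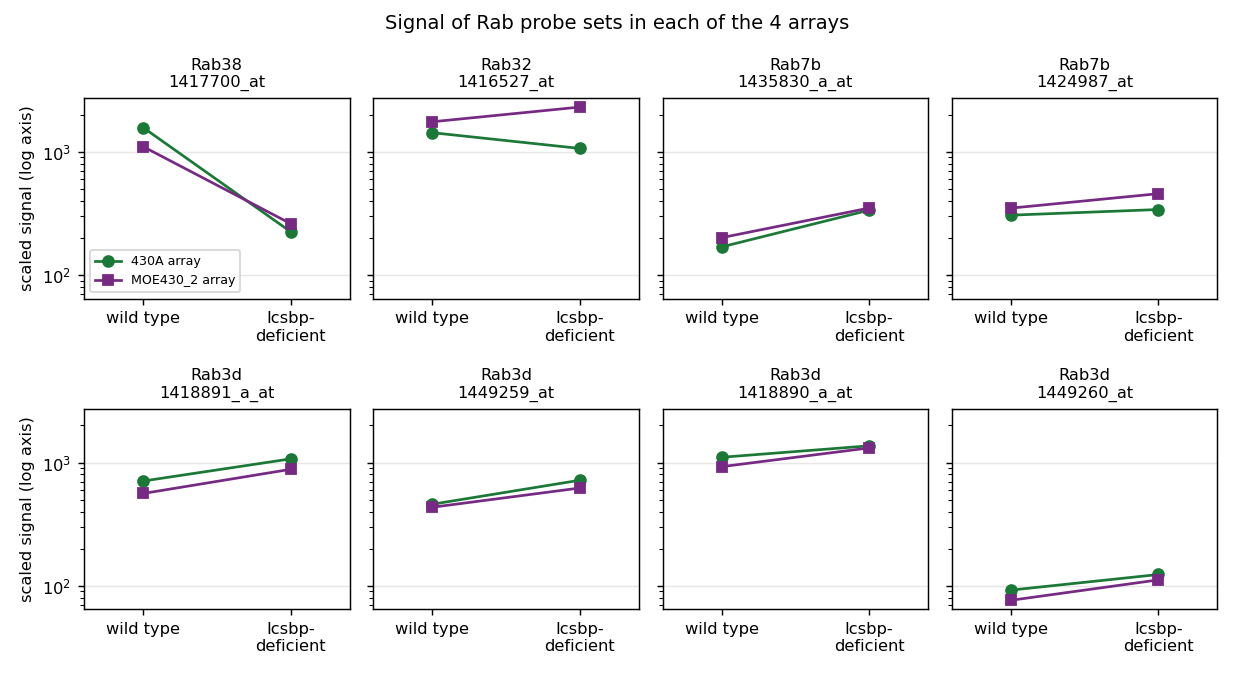
Scaled signal (log axis) of 8 Rab probe sets in wild type and Icsbp-deficient GMP, with 1 point per array and lines joining the arrays of 1 type (circles 430A, squares MOE430_2). Rab38 falls from 1576 to 225 and from 1104 to 261, Rab32 goes in opposite directions on the types, and the Rab7b and Rab3d probe sets are higher in deficient GMP on both.

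At the late endosome, lysosome and autophagosome, 1 of 8 tested probe sets of 5 genes was called, for Rab7b, beside 5.13% of all. An unadjusted limma p under 0.05 was found for 2 of the 8, 25%, of Rab7b and Rab9, beside 18.6% of all tested probe sets. Rab7b acts between late endosomes and the trans-Golgi network and has been described as a brake on Toll-like receptor signals in macrophages. Its called probe set, 1435830_a_at, read 169 in wild type and 336 in deficient GMP on the 430A arrays and 201 and 350 on the MOE430_2 arrays. The groups did not overlap, and the mean log2 ratio was 0.74 ± 0.17, 1.68-fold, with a limma adjusted p of 0.0361. Its other tested probe set, 1424987_at, read 306, 340, 349 and 457 in the same order and was not called, at 0.24 ± 0.16 (limma adjusted p = 0.484). The call held in 5 of 9 alternatives that kept the block and could test it, and its limma adjusted p reached 0.140 in the others. The probe sets of Rab7b therefore differ in size of change as well as in call.

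Rab7 itself, which drives fusion of late endosomes with lysosomes, was not called. Its probe set 1415734_at read 3483 in wild type and 3068 in deficient GMP on the 430A arrays and 3061 and 3175 on the MOE430_2 arrays, a mean of -0.06 ± 0.12. The other Rab7 probe set had a mean of 0.12. Rab9, which returns mannose 6-phosphate receptors from late endosomes to the Golgi, read 1200 and 1908 on the 430A arrays and 1756 and 2138 on the MOE430_2 arrays. It was higher in deficient GMP within each type, at 0.65 and 0.28, and its mean of 0.46 ± 0.14 was not called (limma adjusted p = 0.0976). The Rab24 probe sets, of a Rab linked to autophagy, had means of -0.24 and -0.11, and Rab12 had 0.17.

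Rabs of the early endosome were called by limma in 0 of 11 tested probe sets of 7 genes, and 1 of the 11, 9.09%, had an unadjusted p under 0.05, beside 18.6% of all. The median was 0.17, and 10 of the 11 means were above 0. Rab5c, a Rab5 isoform that drives early endosome fusion, read 883 in wild type and 879 in deficient GMP on the 430A arrays and 434 and 472 on the MOE430_2 arrays. Its mean was 0.05 ± 0.15, with an interval from -0.28 to 0.38 (limma adjusted p = 0.891). The other Rab5 isoforms had means of 0.32 for Rab5a and 0.10 for Rab5b, and the latter was 0.74 on 1 type and -0.54 on the other. Rab21, known for the uptake of integrins, was the nearest to a call at this step. Its probe set 1437741_at read 1490 in wild type and 2193 in deficient GMP on the 430A arrays and 1251 and 1631 on the MOE430_2 arrays, a mean of 0.46 ± 0.13 (limma adjusted p = 0.0819). The other Rab21 probe set had 0.18. Rab31, which acts between the trans-Golgi network and endosomes, had means of 0.15 and -0.00.

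Recycling Rabs were called by limma in 0 of 11 tested probe sets of 6 genes, 0 had an unadjusted p under 0.05, and the median was 0.07. Rab14, which acts between early endosomes and the Golgi, had 5 tested probe sets with means from -0.10 to 0.13. Its brightest, 1419246_s_at, read 1943 in wild type and 1882 in deficient GMP on the 430A arrays and 2648 and 3091 on the MOE430_2 arrays. Rab4a, a Rab of rapid recycling, was the lowest of this step, at -0.40 and -0.44 on the types and a mean of -0.42 ± 0.22 (limma adjusted p = 0.341). Its 4 readings, 123 and 80.6 on the 430A arrays and 117 and 73.2 on the MOE430_2 arrays, were close to the filter. The Rab11 isoforms of the slow recycling route had means of 0.30 and -0.05 for Rab11a and 0.08 for Rab11b. Rab35, on the MOE430_2 type only, had a log2 ratio of -0.14.

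In the secretory route from the ER through the Golgi, 0 of 17 tested probe sets of 9 genes were called by limma, and 2 had an unadjusted p under 0.05, 11.8% beside 18.6% of all tested probe sets. Rab1a, which directs traffic from the ER to the Golgi, read 3693 in wild type and 3481 in deficient GMP on the 430A arrays and 4689 and 4620 on the MOE430_2 arrays. This was a mean of -0.05 ± 0.11 with an interval from -0.29 to 0.18. Rab1b had 0.32 (limma adjusted p = 0.235), the 3 Rab2a probe sets 0.04 to 0.21 and the pair of Rab6a probe sets 0.13 and 0.16. Rab34, a Golgi-associated Rab known for lysosome positioning, had the largest mean of this step. It read 87.4 in wild type and 158 in deficient GMP on the 430A arrays and 73.5 and 158 on the MOE430_2 arrays, a mean of 0.67 ± 0.21 that was not called (limma adjusted p = 0.106). Both wild type readings of Rab34 were near the filter, so the log2 scale with its offset understates the ratio.

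From the Golgi to the plasma membrane, 0 of 6 tested probe sets of 4 genes were called by limma, and 0 had an unadjusted p under 0.05. Their median was -0.02, and 5 of the 6 had opposite signs on the array types. Rab8b, which acts in polarised secretion, read 2473 in wild type and 2739 in deficient GMP on the 430A arrays and 2194 and 2716 on the MOE430_2 arrays, a mean of 0.22 ± 0.12 (limma adjusted p = 0.364). Rab8a, its paralog, had -0.15, and the 3 Rab10 probe sets ranged from -0.07 to 0.19. The 6 tested probe sets of Rabs with other or less defined roles had means from 0.02 to 0.34, of which 0 were called by limma. An unadjusted limma p under 0.05 was found for 1 of the 6, 16.7% beside 18.6% of all tested probe sets. The highest was Rab28, a Rab of ciliated cells, at 0.34 (limma adjusted p = 0.257), with 0.04 to 0.63 when 1 array was left out.

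**Figure D3:**
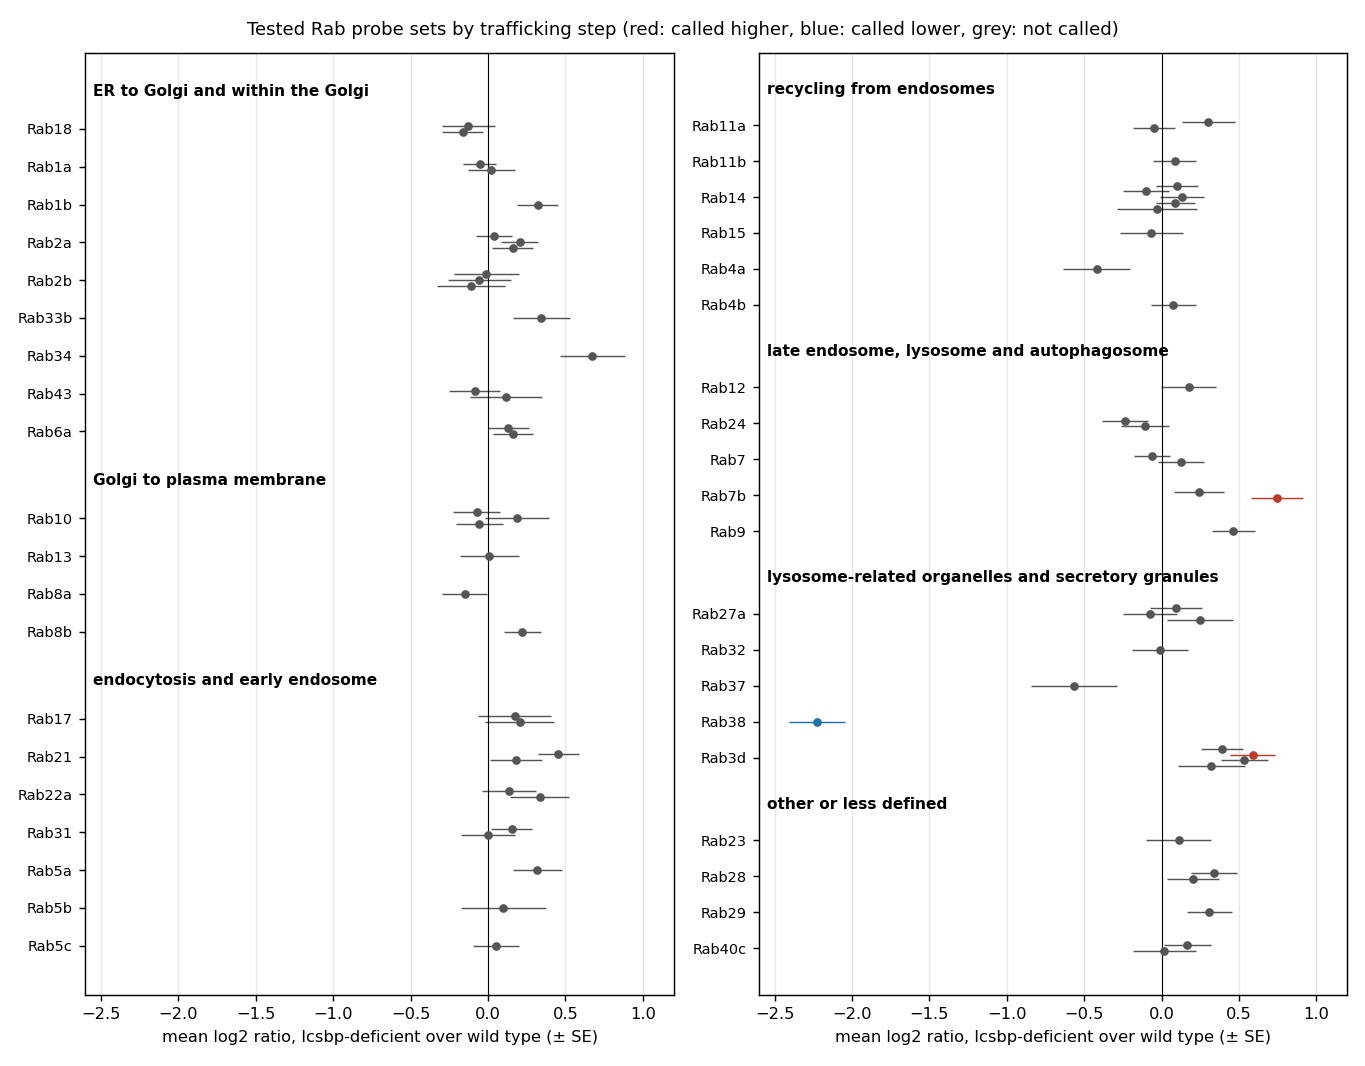
Mean log2 ratio of Icsbp-deficient over wild type GMP (x axis) with its moderated standard error for each of the 69 tested Rab probe sets, 1 line per gene, grouped by transport step. Rab38 at -2.23 is the 1 member called lower (blue), single probe sets of Rab7b and Rab3d are called higher (red), and the rest lie between -0.57 and 0.67.

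The probe sets of the MOE430_2 type alone gave the other values of the family, each from 1 array per genotype. By the filter of that type, at a signal of 57.9, 22 of the 37 were below it, and 6 of the 9 genes found only there had no probe set above it. Apart from Rab38, the 14 above that filter had log2 ratios from -0.43 for Rab14 to 0.49 for Rab27a. None of those 14 reached 2-fold.

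Promoter sequences were taken from RefSeq (assembly GRCm38.p6), which held 60 promoters of 48 of the 59 Rab genes as windows of 300 bases, 250 before and 50 after the start. Rab38 and Rab7b are not among the 48 and were not searched. Short motifs were searched on both strands, and each match is only a match of letters. The composite element to which IRF8 is known to bind with an ETS partner, GGAA followed after any 2 bases by GAAA, was found in 1 of the 60 Rab promoters, that of Rab11b, and in 2.72% of all 32851 promoters. The core of the interferon-stimulated response element, GAAA followed after any 2 bases by GAAA, was in 1 of 60, that of Rab19, and in 3.44% of all. The E-box of lysosomal genes, TCACGTGA, was in 3 of 60, those of Rab21, Rab24 and Rab5a, and in 0.974% of all. The GC box, GGGCGG, was in 41 of 60, 68.3%, and in 35.7% of all. The promoters shown are those of the called member Rab3d with its 3 GC boxes, Rab11b with the single composite element of the family, and Rab21, the uncalled early endosome Rab nearest to the threshold, with its E-box. All are on the minus strand and are written 5′ to 3′ in the direction of transcription, with the motif in capitals.
Rab3d, chr9:21918134-21918433: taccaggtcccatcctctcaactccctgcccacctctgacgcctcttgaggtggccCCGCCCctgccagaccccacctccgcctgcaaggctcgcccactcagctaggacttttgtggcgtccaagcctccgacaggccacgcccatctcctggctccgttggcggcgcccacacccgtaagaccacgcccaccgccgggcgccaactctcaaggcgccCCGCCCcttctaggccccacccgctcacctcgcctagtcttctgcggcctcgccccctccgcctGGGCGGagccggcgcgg
Rab11b, chr17:33760437-33760736: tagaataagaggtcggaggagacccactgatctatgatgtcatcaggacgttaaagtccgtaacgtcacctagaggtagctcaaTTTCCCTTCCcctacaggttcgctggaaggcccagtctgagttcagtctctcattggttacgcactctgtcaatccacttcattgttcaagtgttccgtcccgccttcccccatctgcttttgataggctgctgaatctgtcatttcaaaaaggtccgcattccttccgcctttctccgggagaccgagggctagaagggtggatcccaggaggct
Rab21, chr10:115315542-115315841: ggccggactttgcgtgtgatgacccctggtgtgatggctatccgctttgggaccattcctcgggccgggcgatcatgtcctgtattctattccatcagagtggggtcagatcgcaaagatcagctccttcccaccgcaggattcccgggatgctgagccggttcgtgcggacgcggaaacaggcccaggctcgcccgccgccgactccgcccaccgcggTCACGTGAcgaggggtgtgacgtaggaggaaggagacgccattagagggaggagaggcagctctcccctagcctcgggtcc
The mean log2 ratio of Rab11b, the 1 gene with the composite element, was 0.08 (limma adjusted p = 0.799). The 3 genes with the E-box had 0.46 and 0.18 for the probe sets of Rab21, -0.24 and -0.11 for Rab24 and 0.32 for Rab5a, of which none was called.

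Transcripts of genes listed around the Rabs, for their prenylation, activation, inactivation and effectors, with GTPases of Rab-like name, were compared in the same way. Of 152 listed genes, 89 were on the shared probe sets and 73 were tested by their brightest probe set. Of the 73, 1 was called higher and 0 lower, 1.37% beside 5.6% of all 7820 genes tested in this way. Their median log2 ratio was 0.02, beside -0.01 over all 7820. None of the 7 genes of Rab recycling and prenylation, 21 activators, 17 inactivators or 4 related GTPases with Rab-like names was called by limma, and 1 of 24 effectors was. At an unadjusted p under 0.05 there were 9 of the 73, 12.3% beside 19.5% of the 7820, of which 5 were effectors, 2 activators and 2 inactivators. A further 50 listed genes were on the MOE430_2 type alone, where there is no replicate.

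The called gene was Dnajc13, a DnaJ protein of early endosomes, which was listed with the effectors although it is not an established Rab binder. Its probe set 1434038_at read 1195 in wild type and 2131 in deficient GMP on the 430A arrays and 1300 and 2350 on the MOE430_2 arrays. Both deficient readings were above both wild type readings, with log2 ratios of 0.81 and 0.83, a mean of 0.82 ± 0.13, 1.76-fold, and a limma adjusted p of 0.0057. It was called in all 11 alternatives that kept the array type block, with limma adjusted p up to 0.0497, and in none of the 5 fits without it.

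The regulators with the largest uncalled means were also higher in deficient GMP. Tbc1d8, of the TBC family of GTPase-activating proteins, had 0.62 (limma adjusted p = 0.0863). Rab11fip5, a Rab11 effector, had 0.62 (limma adjusted p = 0.154). It read 67.7 and 73.2 in wild type, under the filter of 76.8, and passed only through its deficient readings of 117 and 155. Plin3, a Rab9 effector also known as a lipid droplet protein, had 0.52 (limma adjusted p = 0.0719). Gdi2, the GDP dissociation inhibitor that extracts Rabs from membranes, read 4974 in wild type and 4836 in deficient GMP on the 430A arrays and 7077 and 7391 on the MOE430_2 arrays, a mean of 0.01 ± 0.10 (limma adjusted p = 0.969). Rabgef1, the exchange factor for Rab5, had 0.24 ± 0.18 (limma adjusted p = 0.561). The Rab7 partners Vps41 and Vps39, of the tethering complex at the lysosome, had means of -0.00 (limma adjusted p = 0.998) and -0.24 (limma adjusted p = 0.509).

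**Figure D4:**
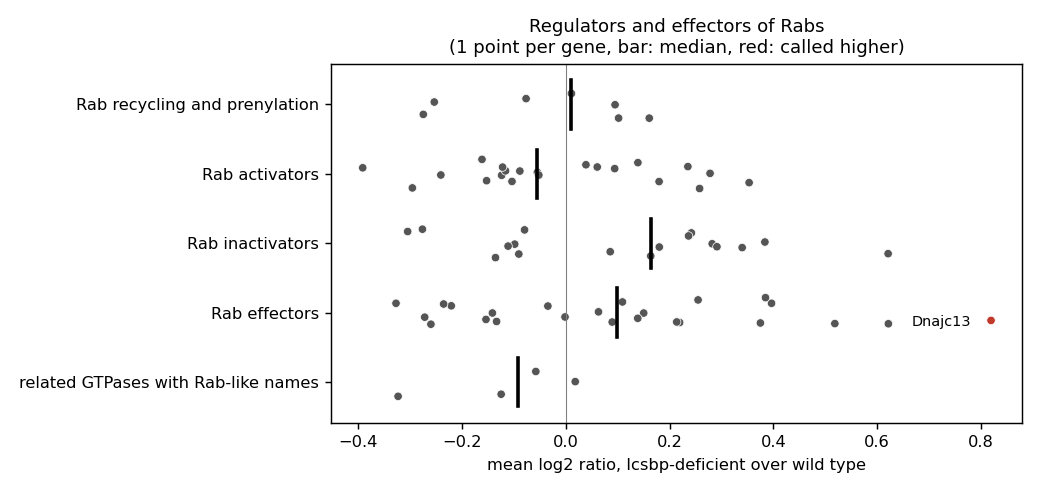
Mean log2 ratio of Icsbp-deficient over wild type GMP (x axis) of the 73 tested genes listed as Rab regulators, effectors or related GTPases, 1 point per gene by its brightest probe set, with bars at the list medians. Dnajc13 at 0.82 is the 1 gene called higher (red), and none is called lower.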

How the data were processed

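The authors deposited 1 signal intensity for each probe set, on a linear scale. The submitters' processing notes name GCOS for the MOE430_2 type, with no version or settings. Over the shared probe sets the deposited signals had a trimmed mean (2%) of 498.5 on the wild type 430A array and between 158.6 and 167.1 on the other 3, so each array was rescaled to 500. Then log2(signal + 50) was computed and quantile normalized within each array type. Of 22690 probe sets on 430A and 45101 on MOE430_2, 22626 were shared after leaving out 64 control probe sets. The 9050 with a mean under the 40th percentile were not tested, which left 13576. Ratios were tested two-sided with limma 3.58.1 (R 4.3.3) in a model of genotype and array type, with trended eBayes moderation and Benjamini-Hochberg adjustment, after a check on simulated data. It had 1 residual degree of freedom per probe set, so its error is mostly borrowed from other probe sets, and the number of arrays limits the precision.

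Probe sets of the MOE430_2 type alone were scaled on the shared probe sets and quantile normalized over that type. Platform symbols (20380 shared probe sets with 1, 691 with several, 1555 unnamed) were updated through RefSeq for 20351, and no probe set with several symbols held a Rab. The members and lists were chosen with earlier results of these data known. Named members are those called, the brightest of each step, the 5 genes with the largest uncalled means, Rab5c, Rab27a and Rab38, and probe sets of the MOE430_2 type alone past 2-fold above the filter. Named regulators are those called plus Gdi2, Unc13d and Rabgef1. Other members are named as part of the account of each step, and the other named regulators were chosen after their values were seen, as was the step of Rab29. Alternatives changed the scaling, normalization, offset, filter, trend, robustness, block and gene summary, and left out each array.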

Additional observations from a re-analysis of the deposited data

How the results depend on the processing

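Alternatives changed 1 choice each, except that leaving out an array also dropped the array type block, and the median of the Rab probe sets was added after the data were seen. The 2 Rab probe sets called higher became 1 with quantile normalization over all 4 arrays (Rab7b). They became 0 with values as deposited, an offset of 16, no filter, no intensity trend or no array type block. With 1 probe set per gene the count was also 0, because neither is the brightest of its gene and so neither was tested there. With a filter at the 60th percentile the count was again 2, but both were Rab3d probe sets and Rab7b was no longer tested. The 1 called lower, Rab38, became 0 without the array type block and was 1 in every other alternative. The 1 called regulator became 2 with a filter at the 60th percentile and with 1 probe set per gene, in both cases by adding Plin3, and 0 without the block. Leaving out an array leaves no residual degrees of freedom in the blocked model, so the 4 fits mix array type into the genotype difference. They gave 0 to 0 Rab probe sets higher, 1 to 1 lower and 0 to 0 regulators. The array type block already pairs the genotypes by array type, and the labels give no further pairing. Over all genes the 696 calls became 397 with values as deposited, 266 without the filter, 267 without the trend and 1 without the block. Each array type alone gives ratios and no test.

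Signs turned for small ratios. Rab32 was 0.00052 under cyclic loess. Without 1 array each in turn, the ratio ran from -0.25 to 0.15 for Rab1a, -0.42 to 0.53 for Rab5c, -0.16 to 0.03 for Rab7, -0.34 to 0.53 for Rab27a, -0.55 to 0.53 for Rab32, -1.17 to 0.03 for Rab37 and -0.26 to 0.44 for Rab14. The turned ratios were 0.12 and 0.15 for Rab1a, -0.42 and -0.36 for Rab5c, 0.028 for Rab7, -0.18 and -0.34 for Rab27a, 0.13 and 0.53 for Rab32, 0.033 for Rab37, and -0.13 and -0.26 for Rab14. With their sign kept, uncalled ratios ran from 0.04 to 0.63 for Rab28, 0.20 to 0.73 for Rab9, 0.25 to 0.66 for Rab21 and 0.03 to 0.28 for Rab31. The Rab median minus that of all probe sets stayed between 0.10 and 0.14 in the 11 blocked alternatives and between 0.08 and 0.16 without 1 array.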
